A study of Mus musculus with 2 samples.

Results

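S100a4, S100a6, S100a10, S100a11, Anxa1, Anxa2, Lgals1, Lgals3 and Vim, 9 of the 32285 genes in the count matrices, were followed through 2 single-cell libraries of mouse kidney. They were taken by gene symbol and all 9 were found. No measured value was a rule of the choice, but earlier results of these data were known when it was made. The cisplatin library came from C57BL6/J males of 10 to 12 weeks, 72 h after 20 mg/kg of the nephrotoxic drug cisplatin, and the saline library from mice of the same strain, sex and age given saline. Each library drew on 10 kidneys, and the design text names 5 mice without saying outright that this is per treatment. Cells were taken after magnetic selection for CD31, an endothelial surface protein, and then for podoplanin, which lymphatic endothelium also carries. With 1 library per treatment there was no replicate and no test: every difference below is between these libraries, and every interval is an exact (Clopper-Pearson) 95% interval that covers counting error only.

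The S100 proteins are small calcium-binding proteins with EF hands that mostly work as dimers on target proteins. S100A10 has lost calcium binding and forms a complex with annexin A2 at membranes, and S100A11 is a known partner of annexin A1. Annexins bind acidic phospholipids when calcium rises. Galectins bind beta-galactoside sugars, Lgals1 as a dimer and Lgals3 through a tail that lets it form larger assemblies. Vimentin is an intermediate filament protein of mesenchymal and endothelial cells. In injured kidney these genes are often read as signs of cell stress, of leukocytes or of mesenchymal change, so the cell in which each is counted matters.

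The S100 members sit on chromosome 3 as separate pairs (GRCm38, GENCODE M21 annotation, gene spans). S100a4 (chr3:90603771-90606045) ends 6837 bases before S100a6 (chr3:90612882-90624181), and S100a11 (chr3:93520488-93526287) ends 28793 bases before S100a10 (chr3:93555080-93564643), all on the plus strand. The pairs lie 2896307 bases apart, from the end of S100a6 to the start of S100a11. The other members lie apart: Vim at chr2:13573927-13582826, Anxa2 at chr9:69453620-69491795, Lgals3 at chr14:47367751-47386160, Lgals1 at chr15:78926725-78930465 and, on the minus strand, Anxa1 at chr19:20373428-20390944. Anxa1 overlaps 1500015L24Rik on the opposite strand and Anxa2 overlaps Gm16144, both counted genes. How reads in these overlaps were assigned was not examined.

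RefSeq promoters (GRCm38.p6, 250 bases before to 50 after the annotated start) matched 7 of the 9 members, S100a10 and Lgals1 having no entry. The 4 printed here belong to S100a4 and Vim, which had the steepest excess in arterial over capillary endothelium in both libraries, and to S100a11 and Lgals3, the members higher in cisplatin capillary endothelium. They span chr3:90603520-90603819, chr2:13574061-13574360, chr3:93520246-93520545 and chr14:47373610-47373909, all on the plus strand, 5′ to 3′, with matches in capitals to 4 motifs searched on both strands. The TATA box was read as the letters TATAAA, the CCAAT box by its own letters, the GC box as the letters GGGCGG and the AP-1 motif as the letters TGANTCA.
S100a4: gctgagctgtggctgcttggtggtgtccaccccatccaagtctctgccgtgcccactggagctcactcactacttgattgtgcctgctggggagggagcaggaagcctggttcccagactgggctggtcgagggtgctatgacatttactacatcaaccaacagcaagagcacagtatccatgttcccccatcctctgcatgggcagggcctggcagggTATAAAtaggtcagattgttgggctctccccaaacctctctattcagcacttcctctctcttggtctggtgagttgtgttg
Vim: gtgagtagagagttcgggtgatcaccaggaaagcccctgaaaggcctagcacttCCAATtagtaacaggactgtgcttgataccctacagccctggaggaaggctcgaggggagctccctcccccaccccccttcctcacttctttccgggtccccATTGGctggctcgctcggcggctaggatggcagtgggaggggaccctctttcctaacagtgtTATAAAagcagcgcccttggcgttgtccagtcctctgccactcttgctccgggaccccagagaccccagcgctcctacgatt
S100a11: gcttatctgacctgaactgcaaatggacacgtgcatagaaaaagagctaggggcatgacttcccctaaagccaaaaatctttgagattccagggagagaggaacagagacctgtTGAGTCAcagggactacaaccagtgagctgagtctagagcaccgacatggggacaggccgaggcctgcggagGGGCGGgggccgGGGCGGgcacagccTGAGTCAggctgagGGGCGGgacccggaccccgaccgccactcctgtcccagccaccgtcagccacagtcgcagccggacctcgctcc
Lgals3: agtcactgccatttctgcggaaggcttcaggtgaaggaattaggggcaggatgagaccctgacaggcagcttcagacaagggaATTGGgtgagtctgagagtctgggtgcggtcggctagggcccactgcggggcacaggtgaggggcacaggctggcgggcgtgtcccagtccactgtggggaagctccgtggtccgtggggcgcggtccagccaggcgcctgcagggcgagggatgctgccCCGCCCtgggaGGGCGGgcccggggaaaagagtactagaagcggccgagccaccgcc
S100a4 and Vim each held a TATA box, first base 31 and 32 bases before the start, and Vim also CCAAT at 196 and, inverted, at 94 bases before it. S100a11 held TGAGTCA at 136 and 38 bases before the start and a GC box at 64, 52 and 24. Lgals3 held an inverted CCAAT 167 bases before the start, an inverted GC box 7 bases before it and GGGCGG at base 4 after it (the base at the start being 0). Of 32817 RefSeq promoters of this length, 13.6% held a TATA box, 37.4% a CCAAT box, 35.6% a GC box and 7.81% the AP-1 letters. These are matches of letters only, no match here overlapped another, and for Vim and Lgals3 the RefSeq start lies inside the longer GENCODE gene span.

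Barcodes with at least 500 UMIs (unique molecular identifiers, each standing for 1 captured transcript) and at most 20% mitochondrial UMIs were kept, 1729 in the cisplatin and 627 in the saline library, with 0 barcodes in common. Each was placed by counting distinct markers, none of them a member: capillary endothelium 69 and 205 barcodes, glomerular endothelium 39 and 26, arterial endothelium 11 and 151, tubule 1337 and 165, and leukocyte 71 and 2 (cisplatin, then saline). Another 376309 and 197491 barcodes of 1 to 100 UMIs, called near-empty droplets, were taken to show the RNA that floats free in the suspension. They held 10.7% of all cisplatin UMIs but 63.0% of all saline UMIs. Barcodes of 101 to 499 UMIs held 66.9% and 17.8%, so the near-empty droplets are unlike fractions of the libraries. Median depth differed between the libraries, with 2334 and 864 UMIs in capillary, 5193 and 953 in glomerular, 5117 and 2818 in arterial and 728 and 666 in tubule barcodes. The labelled cell type was not borne out by its markers: at least 2 of 7 lymphatic markers were seen in 3 of 151 cisplatin and 1 of 434 saline endothelial barcodes, Prox1 in 2 and 2, Lyve1 in 1 and 1, Pdpn, the gene of podoplanin, in 5 and 1, and Ccl21a, Reln and Mmrn1 in 0 of either. Flt4, which blood endothelium can also express, was seen in 35 and 30. The members are therefore described by the blood endothelial gates. From tubule markers, free RNA was estimated to give 7.68% and 5.48% of capillary, 5.51% and 6.06% of glomerular, and 1.74% and 1.49% of arterial UMIs in cisplatin and saline.

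Levels are given as CPM, the UMIs of a gene scaled to a common total of all UMIs in its gate. Arterial endothelium carried the highest summed level of the 9 genes among the endothelial gates in both libraries, and of these gates it was the one where the libraries stood furthest apart: 7047 CPM in cisplatin against 11683 in saline, a ratio of 0.603 (0.555 to 0.654). The sum was 3992 CPM in cisplatin and 3467 in saline capillary endothelium (1.15, 1.05 to 1.27), and 3196 and 3112 in glomerular endothelium (1.03, 0.824 to 1.29). The capillary ratio was 0.970 in barcodes of at least 1000 UMIs and 0.883 when gates were set by summed marker UMIs, so it had no fixed direction. Tubule barcodes held 880.0 CPM in cisplatin and 522 in saline (1.69, 1.32 to 2.19), beside 905 and 700.4 CPM in near-empty droplets (1.29, 1.22 to 1.37). Mitochondrial genes took 30.6% of near-empty UMIs in cisplatin and 3.84% in saline, and with these genes and Malat1 taken out of the total the near-empty ratio was 1.65. Barcodes of 101 to 499 UMIs, which held most cisplatin UMIs, gave 729 and 778 CPM (0.936, 0.872 to 1.01) on all UMIs. Mitochondrial genes took 36.2% of their UMIs in cisplatin and 3.86% in saline, and this ratio was not recomputed without them. Tubule over near-empty droplets was 0.972 (0.902 to 1.05) in cisplatin and 0.745 (0.577 to 0.947) in saline, whereas capillary endothelium stood 4.41-fold (4.09 to 4.75) and 4.95-fold (4.56 to 5.37) above its own near-empty droplets. In cisplatin, mitochondrial genes took 10.7% of tubule and 5.48% of capillary UMIs, against 30.6% in near-empty droplets, which lowers the near-empty CPM of other genes. Cisplatin ratios to near-empty droplets, here and below, were not recomputed without mitochondrial genes.

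**Figure D1:**
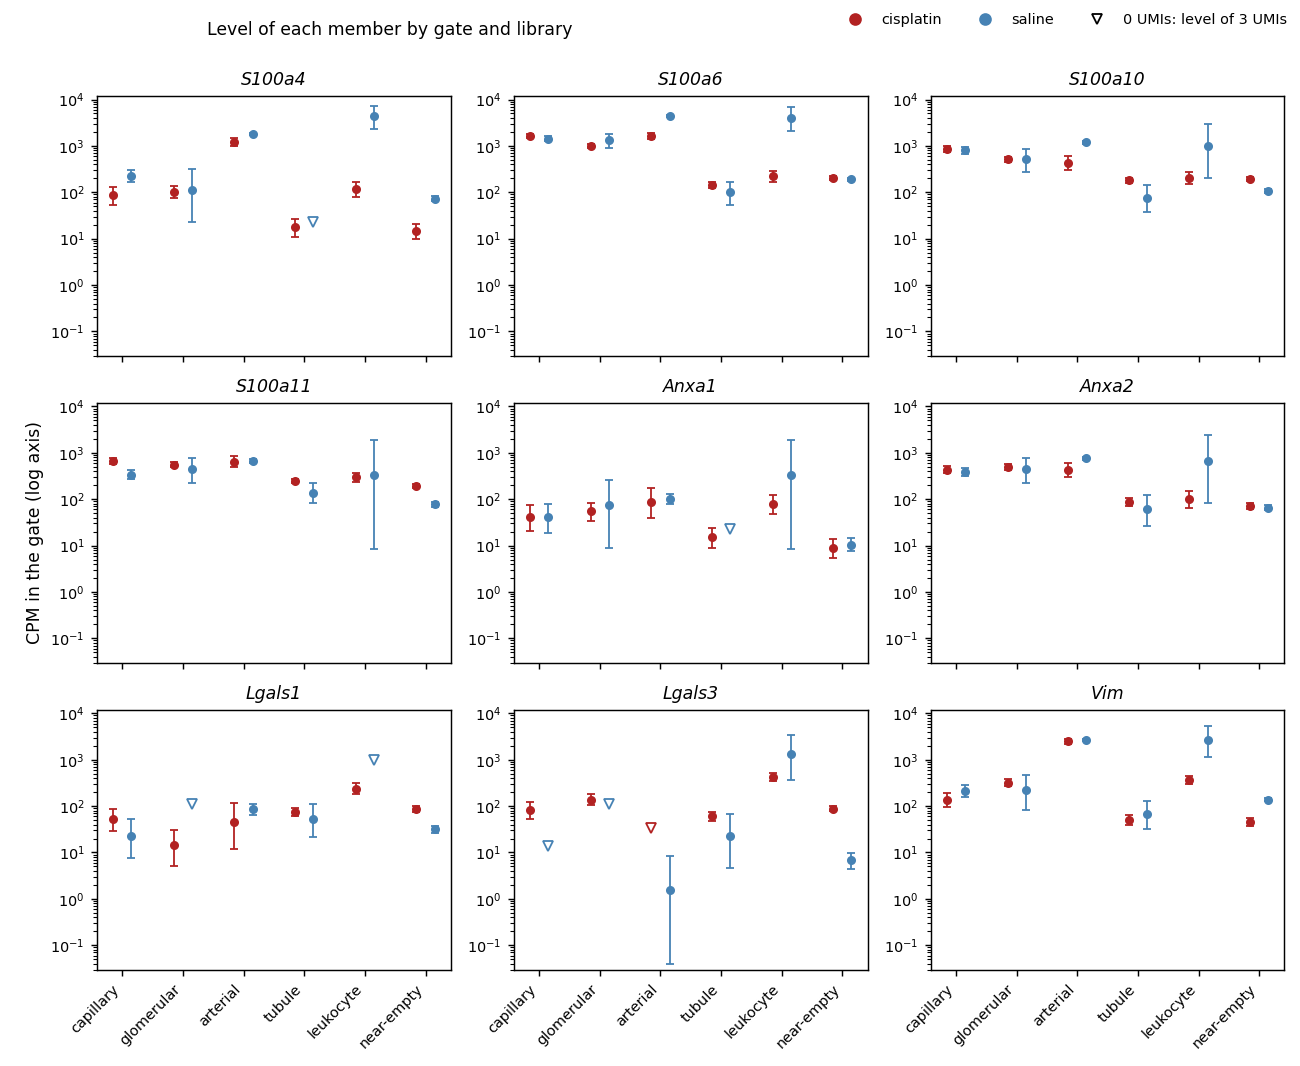
Level of each member in CPM (log axis) by gate, cisplatin in red left of saline in blue, with exact Poisson 95% intervals; open triangles mark a gate with 0 UMIs, drawn at the level of 3 UMIs. S100a4 and Vim peak in arterial endothelium among the endothelial gates, S100a6 reaches 4437 CPM there in saline, and the saline leukocyte points rest on 2 barcodes.

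Arterial and capillary endothelium of the same library come from the same kidneys and the same droplet run, so a ratio within a library does not cross treatments. Setting the cisplatin ratio against the saline ratio does, on 1 library each and 11 cisplatin arterial barcodes. S100a4, a gene of motile and mesenchymal cells, was 14.3-fold higher (9.09 to 23.5) in arterial than in capillary endothelium in cisplatin and 7.76-fold higher (5.85 to 10.5) in saline. Vim was 18.1-fold higher (12.8 to 26.4) in cisplatin and 12.3-fold higher (9.23 to 16.9) in saline. These 2 genes had an arterial excess in both libraries, also without the deepest barcode of each gate (11.1-fold and 7.84-fold for S100a4, 12.2-fold and 12.6-fold for Vim, cisplatin and saline). The other S100 members did not: S100a6 had an arterial over capillary ratio of 1.01 (0.833 to 1.22) in cisplatin against 3.1 (2.76 to 3.50) in saline, S100a10 0.504 (0.349 to 0.710) against 1.49 (1.26 to 1.76), and S100a11 0.979 (0.715 to 1.32) against 1.99 (1.55 to 2.58). For these 3 genes the intervals of the 2 libraries do not overlap. Without the deepest barcode of each gate they still do not for S100a6 (1.25, 0.996 to 1.55, against 3.12, 2.77 to 3.53) and S100a10, but they do for S100a11 (1.15, 0.781 to 1.67, against 2.03, 1.58 to 2.64). Anxa2 gave 0.999 (0.676 to 1.45) in cisplatin and 1.94 (1.54 to 2.47) in saline, and 0.575 (0.323 to 0.967) and 1.99 (1.56 to 2.56) without the deepest barcodes, since 1 cisplatin arterial barcode held 22 of 39 UMIs. Summed over the 9 genes the ratio was 1.77 (1.60 to 1.95) and 3.37 (3.13 to 3.64).

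**Figure D2:**
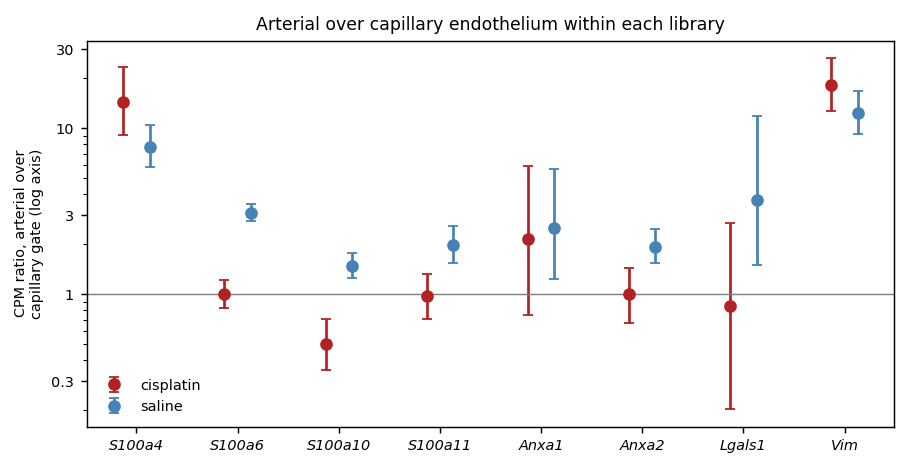
CPM ratio of arterial over capillary endothelium within each library (log axis), cisplatin in red left of saline in blue, with exact 95% intervals; Lgals3 is left out because a gate of each library held 0 UMIs. S100a4 and Vim lie above 7 in both libraries, and S100a6, S100a10 and S100a11 lie lower in cisplatin than in saline.

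Read by treatment, S100a6 and S100a10 were lower in cisplatin arterial endothelium. S100a6, the calcium sensor calcyclin, had 149 UMIs in 11 cisplatin barcodes and 2874 in 151 saline barcodes, or 1656 and 4437 CPM, a ratio of 0.373 (0.314 to 0.440). S100a10 had 39 and 769 UMIs, or 433 and 1187 CPM, a ratio of 0.365 (0.258 to 0.504). Without the deepest barcode of each library, which in cisplatin held 25.0% of the gate's UMIs, the ratios were 0.380 (0.311 to 0.459) and 0.363 (0.241 to 0.525). Marker content of the arterial gate also differed. Capillary markers were 1667 CPM in cisplatin and 925 in saline (1.80). Mural and fibroblast markers were 356 and 21.6 CPM (16.5, on 32 and 14 UMIs). Arterial markers were higher in cisplatin as well, 5669 and 3783 CPM. With barcodes bearing markers of other cell types left out, S100a6 was 0.371 and S100a10 0.324 (3 cisplatin and 86 saline barcodes remained). The part of marker content in these 2 ratios was not tested. The same 2 genes lay within counting error of 1 in capillary endothelium, where S100a6 had 438 and 312 UMIs (1639 and 1431 CPM, 1.15, 0.988 to 1.33) and S100a10 230 and 174 (861 and 798 CPM, 1.08, 0.882 to 1.32). Capillary S100a6 had no fixed direction: its ratio was 1.82 after thinning each barcode to 500 UMIs, 1.45 at a gate margin of 2 markers and 0.772 with gates by summed marker UMIs. Capillary S100a10 stayed between 0.873 and 1.21 under the settings tried. In glomerular endothelium both intervals also included 1, S100a6 at 1009.9 and 1318 CPM (0.766, 0.545 to 1.11) and S100a10 at 511 and 513 CPM (0.997, 0.581 to 1.85), with 36 and 14 saline UMIs behind them.

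In tubule barcodes and near-empty droplets S100a10 lay on the other side of 1. In tubule barcodes S100a10 had 228 UMIs in cisplatin and 10 in saline, 181 and 76.7 CPM, a ratio of 2.35 (1.26 to 4.98). Near-empty droplets of the same libraries gave 416 and 392 UMIs, 194 and 106 CPM, a ratio of 1.84 (1.60 to 2.11). S100a10 in tubule barcodes lay at 0.929 (0.787 to 1.09) of its near-empty level in cisplatin and 0.725 (0.345 to 1.35) in saline. By CPM on all UMIs neither interval left out 1. In cisplatin, mitochondrial genes took 10.7% of tubule but 30.6% of near-empty UMIs, and the ratio was not recomputed without them. S100a6 did not reach 1.5-fold in either place, with 147 and 99.7 CPM in tubule barcodes (1.47, 0.838 to 2.81) and 201 and 191 CPM in near-empty droplets (1.05, 0.931 to 1.19).

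S100a11, the annexin A1 partner, was higher in cisplatin capillary endothelium, with a value that leaned on a few barcodes. It had 176 UMIs in cisplatin and 74 in saline capillary barcodes, 659 and 339 CPM, a ratio of 1.94 (1.47 to 2.58), of which 3.96 and 0.932 UMIs would be free RNA. A single cisplatin barcode of 31899 UMIs, 11.9% of the gate, carried 58 of the 176 UMIs, together with all 34 urothelial and mesothelial marker UMIs of the gate. Without the deepest barcode of each library the ratio was 1.48 (1.09 to 2.01), just under the 1.5-fold limit. It was 1.44 with gates by summed marker UMIs, 1.43 as a mean of per-barcode CPM, 1.49 after thinning to 500 UMIs and 1.12 with barcodes bearing markers of other cell types left out (17 cisplatin and 129 saline barcodes remained). Arterial S100a11 was 645 CPM in cisplatin and 675 in saline (0.955, 0.714 to 1.26), and glomerular S100a11 556 and 439 CPM (1.27, 0.711 to 2.49). In near-empty droplets it was 193 and 78.0 CPM (2.47, 2.12 to 2.88), so free S100a11 was also higher in cisplatin. Tubule S100a11 was 248 and 138 CPM (1.80, 1.12 to 3.07), but 1 saline barcode held 14 of the 18 saline UMIs: the ratio was 7.06 (2.73 to 26.1) without the deepest barcodes and 0.906 in barcodes of at least 1000 UMIs.

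S100a4 was the member that was lower in cisplatin capillary endothelium by the widest margin. It had 23 UMIs in 5 of 69 cisplatin barcodes and 50 in 23 of 205 saline barcodes, 86.1 and 229 CPM, a ratio of 0.375 (0.219 to 0.627), and 0.432 (0.251 to 0.724) without the deepest barcodes. With barcodes bearing markers of other cell types left out it was 0.777, no longer 1.5-fold lower. In the arterial gate 111 and 1153 UMIs gave 1234 and 1780 CPM, a ratio of 0.693 (0.565 to 0.843) that left out 1 but did not reach 1.5-fold lower. The deepest cisplatin barcode held 38 of the 111 UMIs, and without the deepest barcodes the arterial ratio was 0.610 (0.474 to 0.773), past 1.5-fold lower. Near-empty droplets held 31 and 272 UMIs, 14.5 and 73.4 CPM, a ratio of 0.197 (0.131 to 0.287), and there the markers of arterial endothelium (380 and 582 CPM, 0.653) and of all endothelium (1541 and 2386 CPM, 0.646) were lower as well. Arterial marker UMIs in the capillary gate were also fewer, 558 and 963 CPM (0.579, 0.466 to 0.718). Their part in the S100a4 difference was not tested. Tubule barcodes held 22 UMIs of S100a4 in cisplatin and 0 in saline (17.4 CPM, and under 28.3 CPM by the exact upper bound). The cisplatin tubule level was 1.20 (0.664 to 2.15) of the near-empty level.

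The annexins did not reach 1.5-fold in capillary or glomerular endothelium. Anxa2 had 116 and 85 UMIs in capillary endothelium (434 and 390 CPM, 1.11, 0.834 to 1.49) and 206 and 12 in glomerular endothelium (490 and 439 CPM, 1.11, 0.624 to 2.19). In arterial endothelium it had 39 UMIs in cisplatin and 489 in saline, 433 and 755 CPM, a ratio of 0.574 (0.403 to 0.796). That value had no fixed direction: the deepest cisplatin barcode carried 22 of the 39 UMIs, the ratio was 0.340 (0.196 to 0.550) without the deepest barcodes, 1.18 with barcodes bearing markers of other cell types left out (3 cisplatin and 86 saline barcodes remained) and 2.40 after thinning each barcode to 500 UMIs. Anxa1, a ligand of formyl peptide receptors in inflammation, was sparse in endothelium, with 11 and 9 UMIs in capillary (41.2 and 41.3 CPM), 23 and 2 in glomerular (54.7 and 73.2 CPM) and 8 and 67 in arterial barcodes (88.9 and 103 CPM). None of these Anxa1 values could be told apart between libraries at this depth.

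The S100a10 transcript count per Anxa2 transcript, the 2 subunits of one complex, was close between libraries in capillary endothelium, 1.98 (1.58 to 2.50) in cisplatin and 2.05 (1.57 to 2.69) in saline. In arterial endothelium it was 39 to 39 in cisplatin (interval of the ratio 0.625 to 1.60) and 1.57 (1.40 to 1.76) in saline, but the deepest cisplatin barcode held 22 of those 39 Anxa2 UMIs, and without the deepest barcodes it was 1.71 (0.907 to 3.31) and 1.60 (1.42 to 1.80). Near-empty droplets gave 2.70 (2.24 to 3.27) in cisplatin and 1.60 (1.36 to 1.88) in saline. The balance of S100a6 to S100a4 went opposite ways: 19.0 (12.5 to 30.4) in cisplatin and 6.24 (4.62 to 8.59) in saline capillary endothelium, against 1.34 (1.04 to 1.73) and 2.49 (2.33 to 2.67) in arterial endothelium. Per S100a6 transcript there was more S100a11 in cisplatin in both gates, 0.402 (0.335 to 0.480) and 0.237 (0.182 to 0.306) in capillary and 0.389 (0.282 to 0.531) and 0.152 (0.137 to 0.168) in arterial endothelium. Without the deepest barcodes the capillary intervals overlapped, at 0.377 (0.302 to 0.467) and 0.242 (0.185 to 0.315). The arterial ones still did not, at 0.348 (0.235 to 0.505) and 0.157 (0.142 to 0.174). A count ratio between genes rests on 3′ capture of each transcript, so only its change between libraries is described.

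Lgals3, a galectin of macrophages and of collecting duct, had the widest gap between libraries. Near-empty droplets held 190 UMIs in cisplatin and 25 in saline, 88.8 and 6.75 CPM, a ratio of 13.2 (8.64 to 20.8), and barcodes of 101 to 499 UMIs gave 66.4 and 14.3 CPM. Cisplatin capillary endothelium held 22 UMIs in 6 of 69 barcodes and saline 0 in 205, at least 5.98-fold higher against a floor of 3 UMIs. The deepest barcode carried 9 of the 22, and 13 against 0 without it fell under the 20 UMIs needed for a count. Of the 6 barcodes, 5 also held a UMI of a loop, distal or collecting duct marker, 4 of a podocyte marker, 4 of a mural and 3 of a leukocyte marker, while 26, 27, 11 and 9 of the 69 barcodes did. In cisplatin capillary endothelium Lgals3 stood at 0.927 (0.568 to 1.45) of its near-empty level, and its 22 UMIs compare with 1.82 to be expected from the estimated share of free RNA. Glomerular barcodes held 58 UMIs in 8 of 39 in cisplatin and 0 in saline, at least 1.25-fold higher, and 34 of the 58 came from a barcode of 116215 UMIs with 938 UMIs of loop, distal and collecting duct markers. Arterial barcodes held 0 in cisplatin and 1 in saline.

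The cells with most Lgals3 were few. Loop, distal and collecting duct barcodes held 229 UMIs in 6 of 15 cisplatin barcodes (1587 CPM) and 3 in 5 saline barcodes (160 CPM), but 1 barcode made up 63.2% of that gate's UMIs in cisplatin and 1 made up 83.2% in saline. Cisplatin leukocytes held 102 UMIs in 32 of 71 barcodes (425 CPM, 347 to 516), 5.17-fold (3.23 to 8.60) above cisplatin capillary endothelium, and Lgals1 and Vim were 4.54-fold (2.50 to 8.81) and 2.65-fold (1.79 to 4.00) above it. Without the deepest barcode of each gate these were 8.99-fold for Lgals3, 4.40-fold for Lgals1 and 1.16 (0.712 to 1.89) for Vim, of whose 88 leukocyte UMIs 1 barcode held 52. S100a6 ran the other way, at 0.137 (0.102 to 0.183) of the capillary level. Tubule Lgals3 was 76 UMIs in cisplatin and 3 in saline, 60.2 and 23.0 CPM, a ratio of 2.62 whose interval starts at 0.862 and includes 1. Leukocyte markers were higher in cisplatin near-empty droplets (472 and 275 CPM, 1.72, 1.57 to 1.88) and loop, distal and collecting duct markers lower (1872 and 2827 CPM, 0.662), and neither was tested as a source of free Lgals3.

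Lgals1 was sparse in capillary endothelium, with 14 and 5 UMIs (52.4 and 22.9 CPM) where 1.78 and 0.374 would be free RNA, at 0.603 (0.323 to 1.04) and 0.732 (0.233 to 1.76) of its near-empty level in cisplatin and saline. Arterial barcodes held 4 UMIs in cisplatin and 55 in saline, 44.5 and 84.9 CPM, a ratio of 0.524 with an interval of 0.138 to 1.42. Its free level was 186 and 116 UMIs, 86.9 and 31.3 CPM, a ratio of 2.77 (2.19 to 3.53). Mural barcodes, which make Lgals1 in many tissues, held 106 UMIs in 18 cisplatin barcodes (894 CPM) and 2 UMIs in 1 saline barcode, and mural and fibroblast markers in near-empty droplets were 575 and 362 CPM (1.59, 1.47 to 1.72).

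Vim lay within counting error of 1 in arterial endothelium and was lower in free RNA. Arterial Vim had 226 UMIs in cisplatin and 1722 in saline, 2512 and 2659 CPM, a ratio of 0.945 (0.819 to 1.09), but the deepest cisplatin barcode held 97 of the 226 and the ratio without the deepest barcodes was 0.713 (0.591 to 0.853). Capillary Vim had 37 and 47 UMIs, 138 and 216 CPM, a ratio of 0.642 whose interval of 0.406 to 1.01 includes 1, and 1.03 with gates by summed marker UMIs. Near-empty droplets held 99 and 509 UMIs, 46.2 and 137 CPM, a ratio of 0.337 (0.269 to 0.418). S100a4 and Vim, the genes of the arterial pattern, were thus the 2 members at least 1.5-fold lower in near-empty droplets. In barcodes of 101 to 499 UMIs S100a6 was lower as well by CPM on all UMIs (0.586). Mitochondrial genes took 36.2% of those UMIs in cisplatin and 3.86% in saline, which lowers the cisplatin CPM of other genes. The ratio was not recomputed without them. Glomerular Vim was 135 and 6 UMIs (321 and 220 CPM, 1.46, 0.654 to 4.05), and with 1 saline UMI left without the deepest barcodes its ratio was 9.99 (1.76 to 398). Podocyte markers, a cell type that makes Vim, were 900 UMIs in the cisplatin and 1 in the saline glomerular gate, and their part in the glomerular Vim value was not tested.

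**Figure D3:**
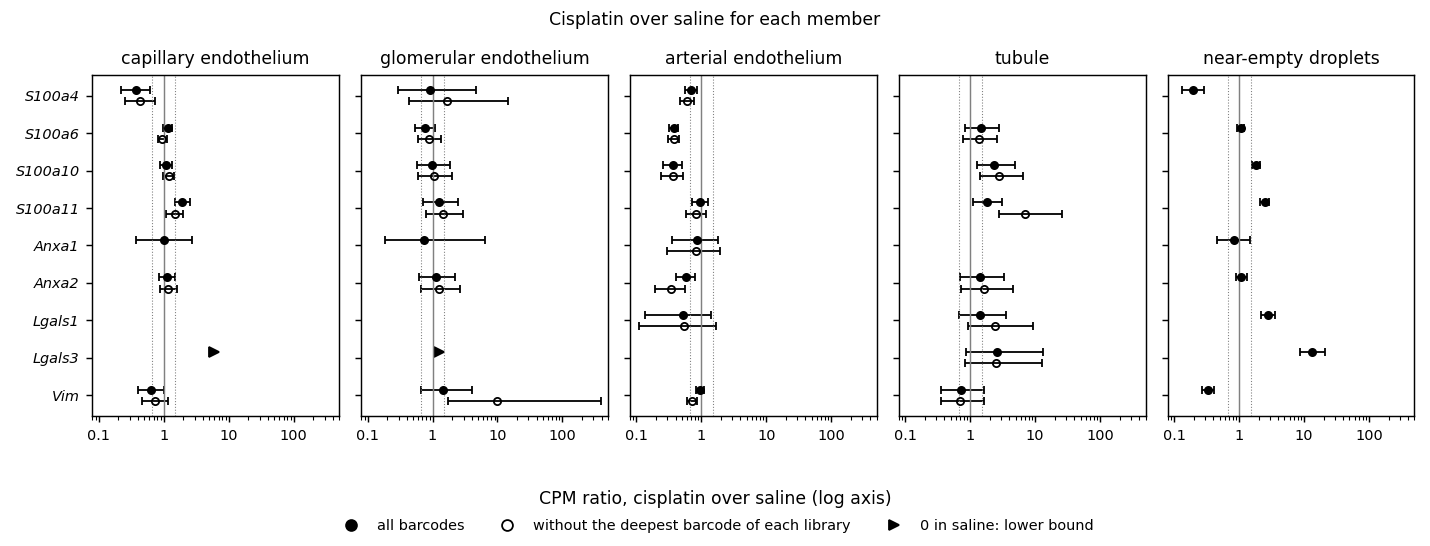
CPM ratio of cisplatin over saline for each member in 5 gates (log axis) with exact 95% intervals; filled points are all barcodes, open points leave out the deepest barcode of each library, triangles are lower bounds against 3 UMIs, and dotted lines mark 1.5-fold. S100a6 and S100a10 lie left of 1 in arterial endothelium, and Lgals3 at 13.2 is farthest right in near-empty droplets.

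Counted by the 1.5-fold limit, with at least 20 UMIs over both libraries, the members did not stand out from all genes in capillary endothelium. Of 8 members counted there, 2 were higher in cisplatin (S100a11 and Lgals3) and 2 lower (S100a4 and Vim), where 19.9% and 22.3% of 4241 genes were higher and lower, and the median log2 ratio was 0.13 for the members and -0.05 for all genes. In arterial endothelium 0 of 8 were higher and 4 lower (S100a6, S100a10, Anxa2 and Lgals1), beside 16.8% and 29.5% of 5385 genes, with medians of -0.66 and -0.16. In glomerular endothelium 0 of 8 passed in either direction, beside 22.6% and 23.3% of 4237 genes, with medians of 0.08 and 0.01. Tubule barcodes had 3 of 8 higher (S100a10, S100a11 and Lgals3) and 0 lower, beside 23.2% and 18.8% of 8885 genes, with medians of 0.56 and 0.02. Near-empty droplets had 4 of 9 higher (S100a10, S100a11, Lgals1 and Lgals3) and 2 lower (S100a4 and Vim), beside 17.9% and 24.9% of 12375 genes, with medians of 0.12 and -0.07. The capillary shares were near the all-gene shares. The shares lower in arterial endothelium and higher in near-empty droplets and tubule barcodes were above them, and the glomerular shares below, on 8 or 9 genes each. Of the 4 lower arterial members, Anxa2 had no fixed direction and the interval of Lgals1 included 1. The member under 20 UMIs was Lgals1 in capillary and glomerular, Lgals3 in arterial and Anxa1 in tubule barcodes.

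The leukocyte gate showed 0 of 9 members higher and 7 lower in cisplatin, beside 4.22% and 28.0% of 1586 genes, with medians of -2.52 and -1.10. All 44 saline member UMIs there came from 1 barcode of 2341 UMIs, 78.1% of the gate, and the other saline barcode held 0. Those values describe a single cell, and without it no ratio could be given. Pooling all endothelial barcodes gave 1 of 9 members higher (Lgals3) and 5 lower (S100a4, S100a6, S100a10, Lgals1 and Vim), beside 22.0% and 13.9% of 8859 genes, and a summed level of 4501 CPM in cisplatin and 9239 in saline (0.487, 0.470 to 0.505). Arterial barcodes were 11 of 151 endothelial barcodes in cisplatin and 151 of 434 in saline, so the pooled libraries also differ in make-up, and the pooled ratio lies below each of the 3 gate ratios.

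Depth was set equal by a single random draw of 500 UMIs from each barcode and asking in how many a member was seen. S100a6 was seen in 53.6% (41.2 to 65.7) of 69 cisplatin and 29.3% (23.1 to 36.0) of 205 saline capillary barcodes (73.9% and 41.0% at full depth), beside 6.28% and 3.03% of tubule barcodes. In tubule barcodes its CPM stood at 0.729 (0.611 to 0.869) of the near-empty level in cisplatin and 0.522 (0.277 to 0.899) in saline. The arterial share of S100a6 was 54.5% (23.4 to 83.3) of 11 and 81.5% (74.3 to 87.3) of 151. Arterial S100a10 was seen in 0 of 11 cisplatin barcodes (0 to 28.5%) and 41.7% (33.8 to 50) of saline barcodes, although it was seen in 90.9% and 85.4% at full depth. Arterial Vim was seen in 45.5% (16.7 to 76.6) and 64.2% (56.0 to 71.9), and arterial S100a4 in 27.3% (6.02 to 61.0) and 50.3% (42.1 to 58.6). Capillary S100a11 was seen in 21.7% (12.7 to 33.3) and 13.7% (9.27 to 19.1), and capillary S100a10 in 24.6% (15.1 to 36.5) and 28.8% (22.7 to 35.5). The S100a6 share of capillary barcodes and the S100a10 share of arterial barcodes were the ones of these whose intervals did not overlap between the libraries. The arterial S100a10 share rests on that single draw, and its intervals do not cover the spread between draws. With 1 of 11 barcodes positive, as for Lgals1, the interval reached 41.3% and would overlap the saline one.

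**Figure D4:**
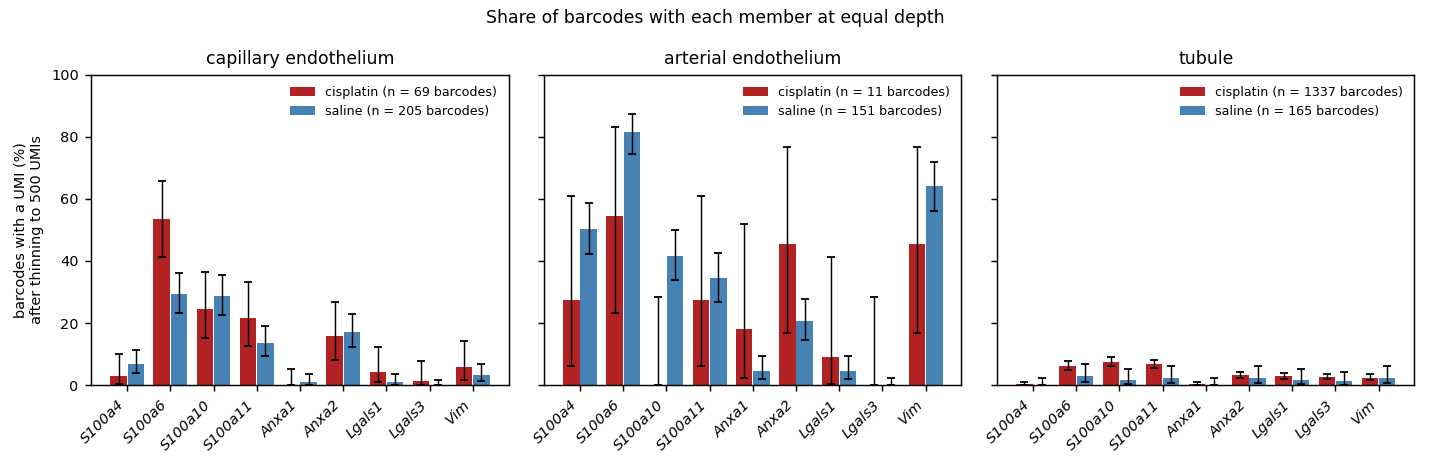
Share of barcodes with at least 1 UMI of each member (percent) after thinning every barcode to 500 UMIs, cisplatin in red left of saline in blue, with exact binomial 95% intervals. In this single random draw arterial S100a10 is seen in 0 of 11 cisplatin and 41.7% of saline barcodes, and tubule shares stay under 8%.

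The wider S100, annexin and galectin families and their partners, 37 genes, gave no single direction. In capillary endothelium 4 of 14 counted genes were higher and 3 lower, beside 19.9% and 22.3% of all genes: S100a16 at 445 and 257 CPM (1.73, 1.25 to 2.43) was higher, while the annexin Anxa5 at 225 and 381 CPM (0.590, 0.416 to 0.832) and the filament gene Nes at 56.1 and 142 CPM (0.395, 0.198 to 0.754) were lower. Ahnak, a large scaffold bound by the S100a10 and Anxa2 complex, was 610 and 839 CPM there (0.727, 0.585 to 0.903). In arterial endothelium 3 of 15 were higher and 3 lower, beside 16.8% and 29.5%, the lower ones being S100a13 at 456 and 1021 CPM (0.447, 0.317 to 0.612), Anxa5 at 400.1 and 653 CPM (0.613, 0.423 to 0.862) and Lgals9 at 22.2 and 181 CPM (0.123, 0.0147 to 0.455). Tubule barcodes had 7 of 18 higher and 2 lower, beside 23.2% and 18.8%, with Lgals4 at 123 and 46.0 CPM (2.67, 1.20 to 7.38).

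In glomerular endothelium 7 of 16 counted family genes were higher and 1 lower, beside 22.6% and 23.3% of all genes. S100g, the calbindin of distal tubule cells, had 1590 UMIs in cisplatin and 0 in saline, at least 34.4-fold higher, and 1385 of them lay in the barcode of 116215 UMIs. Without the deepest barcodes 205 against 0 remained, at least 5.50-fold higher. In near-empty droplets 8 of 22 were higher and 0 lower, beside 17.9% and 24.9%. The neutrophil genes S100a8 and S100a9 were 8.41 and 1.35 CPM (6.23, 2.23 to 21.5) and 18.2 and 1.35 CPM (13.5, 5.32 to 43.9), Lgals4 113 and 35.6 CPM (3.17, 2.56 to 3.95) and Lgals3bp, a secreted galectin ligand, 101 and 41.0 CPM (2.46, 1.99 to 3.05). Cisplatin leukocytes held 437 UMIs of S100a9, and 0 were seen in the 2 saline barcodes.

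Across 12 points, the 5 gates and near-empty droplets of both libraries, the mean profile of the members on the log2(CPM + 10) scale was most like those of Rraga (Pearson r = 0.976), Srp14 (0.963), Anxa3 (0.954), Card19 (0.953) and Cnbp (0.949) among 5854 genes with at least 100 UMIs. Members followed their own mean to different degrees, from Anxa1 at 0.950, S100a4 at 0.925, S100a6 at 0.895 and Vim at 0.891 to S100a11 at 0.748, Lgals3 at 0.281 and Lgals1 at -0.254. The points share libraries and depth, 1 of them is the saline leukocyte gate of 2 barcodes, and the values are a description of likeness only.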

How the data were processed

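The authors deposited raw, unfiltered UMI counts per gene and barcode for each library. Per the submitters' processing notes, Cell Ranger 6.0.1 and mm10 were used, while the matrix headers name Cell Ranger 4, and the aligner settings are not given in the sources used here. UMIs were summed per gate and library and divided by all UMIs of the gate (CPM), with Python 3.11.15, scipy 1.17.1 and pandas 2.3.3. Library totals were 19994105 UMIs in cisplatin and 5879496 in saline.

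A barcode joined the lineage with the most distinct markers (at least 2, or 3 for tubule, and more than any other of 6 lists), and an endothelial barcode then the subgate with at least 2 markers and more than the others. Doublets were not called. Those with markers of other cell types were left out in an alternative. Ratios of CPM have exact conditional binomial intervals, and a library at 0 was set at 3 UMIs for a bound. A gene counted as higher or lower at 1.5-fold with at least 20 UMIs over both libraries. No p-value was computed, since there was 1 library per group. The scripts were tested on simulated counts. Alternatives covered scaling, filters, gate rules, free RNA, thinning and the deepest barcodes.

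The 9 members, the 37 further genes and the marker lists were chosen with earlier results of these data known. Of the further genes, up to 4 per gate were named, those whose interval bound nearest 1 lay farthest from it. Other cell types were described only where a member's value turned on them.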

Additional observations from a re-analysis of the deposited data

Results flagged for a closer look

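S100a10 had opposite directions in different gates under the same treatment contrast: cisplatin over saline was 2.35 in tubule barcodes (181 and 76.7 CPM) and 1.84 in near-empty droplets (194 and 106 CPM), and 0.365 in arterial endothelium (433 and 1187 CPM). In barcodes of 101 to 499 UMIs it was 1.25 on all UMIs, of which mitochondrial genes took 36.2% in cisplatin and 3.86% in saline. The difference between gates was not tested, since each rests on 1 library per treatment.

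Members were also counted in barcodes that no comparison used. The 1712 cisplatin barcodes with at least 500 UMIs and over 20% mitochondrial UMIs held 742 CPM of the 9 genes summed (1193 UMIs), against 2520 CPM (5 UMIs) in the 3 saline barcodes of that kind. Lgals3 was 147 CPM in those cisplatin barcodes, on 237 UMIs, and 0 UMIs were seen in saline.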

How the results depend on the processing

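No paired analysis was possible because each treatment had 1 library. Of 221 recomputed sums and counts of members, 166 held to the value reported, 53 moved and 2 changed direction, and of 444 single-gene ratios 397 held, 44 moved and 3 changed direction. The cause of these changes was not tested.

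The summed capillary ratio was 0.970 at 1000 UMIs or more, 0.883 with gates by summed marker UMIs, 1.002 with barcodes bearing markers of other cell types left out, 1.36 after thinning and 1.38 with a gate margin of 2 markers. The glomerular sum was 0.733 by summed marker UMIs and 1.43 with other cell types left out. The arterial sum was 0.670 under median-of-ratios scaling, 0.700 by summed marker UMIs, 0.735 with other cell types left out and 0.520 without the deepest barcodes (chosen after seeing the data), always lower in cisplatin. The tubule sum was 1.19 at 1000 UMIs, 2.50 at a margin of 2 and 2.25 without the deepest barcodes. The leukocyte sum was 0.303 under median-of-ratios scaling, 0.217 by summed marker UMIs and 0.278 thinned. The near-empty sum was 1.65 without mitochondrial genes and Malat1 in the denominator, 1.09 at 1 to 50 UMIs and 1.44 at 10 to 100 UMIs.

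Members higher in capillary endothelium (2 as reported) numbered 1 at 2-fold, by summed marker UMIs, by the mean of per-barcode CPM and thinned (where it was S100a6 at 1.82, not one of the reported 2), and 0 with other cell types left out or without the deepest barcodes. Members lower there (2) numbered 1 under each of those 6 settings and at a margin of 2. Glomerular members higher (0) numbered 1 under median-of-ratios scaling, with other cell types left out, with free RNA subtracted and by the mean of per-barcode CPM, 3 at a margin of 2 and 2 without the deepest barcodes, and lower (0) 1 at 1000 UMIs and 3 by summed marker UMIs. Arterial members lower (4) numbered 2 at 2-fold, and higher (0) 1 by the mean of per-barcode CPM and thinned. Tubule members higher (3) numbered 6 at a margin of 2 and by summed marker UMIs, and 5 without the deepest barcodes and by the mean of per-barcode CPM, and lower (0) 1 at 1000 UMIs, by summed marker UMIs and by that mean. Leukocyte members higher (0) numbered 1 under median-of-ratios scaling, and lower (7) 4 with other cell types left out and 0 without the deepest barcodes or thinned. Arterial Anxa2 turned to 1.18 with other cell types left out and 2.40 thinned, and tubule S100a11 to 0.906 at 1000 UMIs.

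Depth limits the rest: arterial cisplatin rests on 11 barcodes, glomerular saline on 26 and leukocyte saline on 2. The median gene had a log2 ratio of -0.15 in the arterial gate and -1.12 in the leukocyte gate. Scaling to it brought the arterial sum from 0.603 to 0.670, less low than by CPM. By CPM the median member lay below the median gene, at log2 ratios of -0.66 in the arterial and -2.52 in the leukocyte gate. Not every member did: under that scaling arterial S100a11 was 1.06 and Vim 1.05, while the other counted arterial members stayed below 1. The leukocyte value rests on member UMIs of 1 saline barcode.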
